A study of Mus musculus with 22 samples.

Results

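The genes described here are 9 transcripts that mark resting, or homeostatic, microglia, the resident macrophages of the central nervous system. They were taken by name from the 18193 genes measured on Affymetrix Mouse430_2 arrays, each represented by the probe set with the highest mean signal among those that the platform annotation ties to a single gene symbol. All 9 were present and no filter on low signal was applied.

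The mice were C57Bl/6 wild type, 10 to 12 weeks of age, and total RNA had been taken from their cord after cross-clamping of the aorta for 7.5 min or after sham surgery. Clamping the aorta interrupts the blood supply of the lower cord. Cord below T6 (caudal) and cord above T6 (rostral) were hybridised separately. The groups were caudal 24 h after clamping (arrays 281, 282 and 283), caudal 48 h (271, 272, 273 and 274), caudal sham (278, 279 and 280), rostral 24 h (281 to 283), rostral 48 h (271 to 274) and rostral sham (277 to 280). No group carried a genetic change, and the tissue was whole cord, so the cells that gave each RNA are not separated. A further rostral array, 276, carried both times in its labels and belonged to no group. Nothing in the labels says that the arrays of a group came from separate animals, so a p-value here reflects only how these samples vary, and part of that may be technical.

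Microglia keep this set of transcripts on while the tissue is undisturbed, under the control of transforming growth factor beta and of transcription factors that include SALL1 and PU.1. When microglia become activated, the set is known to be lowered as a group, while general myeloid and phagocytic genes are raised. P2ry12 and P2ry13 encode G protein-coupled receptors for ADP, Gpr34 a receptor for lysophosphatidylserine and Cx3cr1 the receptor for the neuronal chemokine fractalkine. Tmem119 encodes a membrane protein, Siglech a sialic acid-binding lectin that signals through the adaptor TYROBP, and Fcrls a scavenger receptor-like protein of the Fc receptor-like family. Sall1 encodes a zinc finger transcription factor, and Olfml3 a secreted olfactomedin-domain protein.

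Several arrays stand apart or go against their labels. Hoxc10, a gene of the lumbar cord, had a log2 signal of 5.67 on the array labelled caudal 283 and of 10.14 on the array labelled rostral 283, against 9.19 to 10.48 on the other caudal arrays and 5.32 to 6.22 on the other grouped rostral arrays. Hoxc5, a gene of the cervical cord, showed the reverse on this pair, with 8.22 on the array labelled caudal and 6.07 on the array labelled rostral. The 24 h differences below are therefore also given without both arrays numbered 283. Cardiac muscle genes were high after 48 h: the median change of 12 cardiac genes from sham was between 0.80 and 2.40 on the caudal 48 h arrays and between 4.48 and 5.67 on the rostral 48 h arrays, and at most 0.11 on the other grouped arrays. Neuronal and glial genes of the cord were present on all grouped arrays, with a mean log2 signal over 10 such genes of at least 11.9. Caudal array 271 had the lowest spread of signals (SD 2.05), and the Gapdh 5′ probe set was below the 3′ one by 1.05 on caudal array 274 and by 0.68 on caudal array 280 (log2 differences of -1.05 and -0.68), a sign of shortened RNA.

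**Figure D1:**
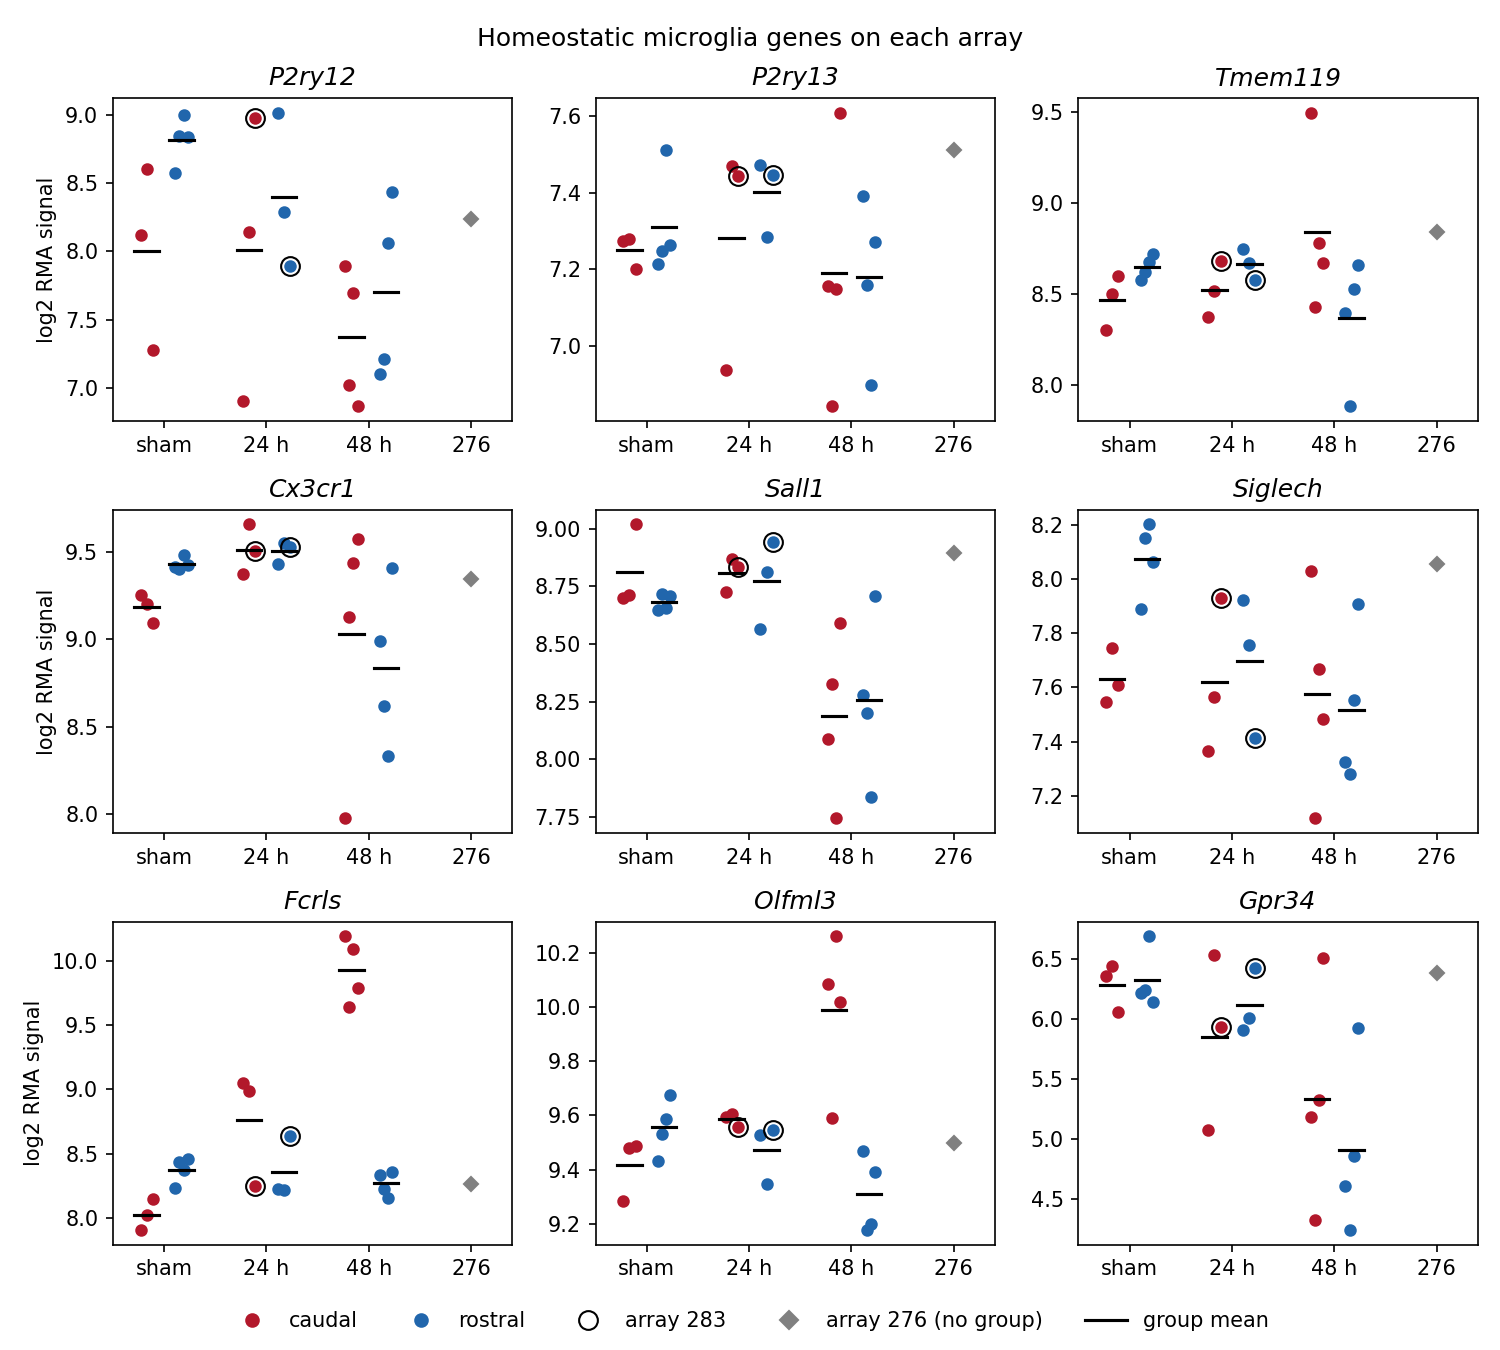
Log2 RMA signal of each of the 9 genes (one panel each, with its own vertical scale) on every array, by sham, 24 h and 48 h group, for caudal (red) and rostral (blue) cord. Points are arrays, bars are group means, rings mark the arrays numbered 283 and the grey diamond is array 276. Fcrls is the panel in which the 4 caudal 48 h arrays stand far above all others.

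Promoter sequences are shown for the gene that rose most, Fcrls, for the other gene that rose, Olfml3, and for P2ry12, a gene that did not follow them. Each is a RefSeq window of the GRCm38.p6 build, 250 bases before to 50 bases after the gene's start, 5′ to 3′ on the gene's strand, and capitals mark a match to a kB motif.
Fcrls (chr3:87263475-87263774, minus strand): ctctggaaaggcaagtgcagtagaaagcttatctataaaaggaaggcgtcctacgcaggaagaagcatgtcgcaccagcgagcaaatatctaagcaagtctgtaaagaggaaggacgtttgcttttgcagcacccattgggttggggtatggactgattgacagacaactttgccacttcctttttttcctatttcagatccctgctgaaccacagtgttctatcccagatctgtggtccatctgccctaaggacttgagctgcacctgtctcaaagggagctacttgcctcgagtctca
Olfml3 (chr3:103737952-103738251, minus strand): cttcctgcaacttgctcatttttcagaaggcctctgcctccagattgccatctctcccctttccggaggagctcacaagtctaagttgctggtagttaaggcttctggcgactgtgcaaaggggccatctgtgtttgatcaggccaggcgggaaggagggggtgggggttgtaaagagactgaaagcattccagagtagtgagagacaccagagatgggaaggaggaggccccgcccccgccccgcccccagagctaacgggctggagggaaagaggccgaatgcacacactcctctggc
P2ry12 (chr3:59262936-59263235, minus strand): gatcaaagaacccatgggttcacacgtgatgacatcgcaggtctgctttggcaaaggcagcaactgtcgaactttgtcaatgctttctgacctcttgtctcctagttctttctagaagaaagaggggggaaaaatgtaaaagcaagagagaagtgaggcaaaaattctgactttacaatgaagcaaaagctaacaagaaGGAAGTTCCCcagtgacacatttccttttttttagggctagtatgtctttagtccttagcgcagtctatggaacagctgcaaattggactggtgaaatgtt

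The RefSeq table held windows for P2ry12, P2ry13, Cx3cr1, Sall1, Siglech, Fcrls and Olfml3, that is 7 of the 9 genes. Both strands were searched for an ETS site of the kind that PU.1 binds (GAGGAAGT), a STAT site (TTCNNNGAA), an IRF site (GAAANNGAA) and a kB site. Over 32851 windows of 300 bases, 3.2% held the ETS letters, 8.3% the STAT letters, 8.56% the IRF letters and 20.7% a kB match. Among the 7 genes, P2ry12 had 1 kB match (position -51 from the start), Siglech had 1 STAT match (position -123) and 1 of the 3 Sall1 windows had 1 kB match. No window held matches to more than 1 of the motifs, so none overlapped. The windows of Fcrls, Olfml3, P2ry13 and Cx3cr1 held none of the 4, which says only that these letters are not in these 300 bases.

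At 48 h below T6, the 9 genes did not move together. Fcrls rose 3.75-fold, Olfml3 rose 1.49-fold and Sall1 fell to 0.65 of its sham level, while the other 6 genes did not pass the test. Of the 9 genes, 3 were called, 2 higher and 1 lower, at a Benjamini-Hochberg adjusted p under 0.05 over all genes with limma, against 12.5% of all genes (5.52% higher and 7.02% lower). The median change of the 9 genes was -0.06 on the log2 scale, and that of all genes was 0.00. In whole tissue, fewer cells of a type and less RNA per cell cannot be told apart, and the same holds for more cells and more RNA per cell.

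Fcrls had log2 signals of 10.19, 9.64, 10.10 and 9.79 on the caudal 48 h arrays, against 7.90, 8.02 and 8.14 on the caudal sham arrays. Every 48 h array was more than a full log2 unit above every sham array, so the groups did not overlap. Over all genes, 8.90% had every caudal 48 h array above every caudal sham array. The change was 1.91 ± 0.17 (log2, SE, n = 4 and 3 arrays), with a 95% interval of 1.55 to 2.26 and an adjusted p of 4.03e-06 in limma. Olfml3 had signals of 10.09, 9.59, 10.26 and 10.02 at 48 h, against 9.28, 9.48 and 9.49 in sham cord. All 48 h arrays were again above all sham arrays, array 272 only narrowly. The change was 0.57 ± 0.13 (adjusted p = 0.00702). It kept its size but not its call without caudal sham array 278 (0.51, adjusted p = 0.0523), or when only the 2 groups entered the fit (adjusted p = 0.325). The fit of only the 2 groups called 142 of all genes in place of 2282.

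Sall1, the transcription factor, had signals of 8.09, 8.33, 7.74 and 8.59 on the caudal 48 h arrays, against 8.70, 8.71 and 9.02 on the sham arrays. The groups did not overlap, although array 274 came close to the lowest sham array. Over all genes, 11.1% had every caudal 48 h array below every caudal sham array. The change was -0.62 ± 0.18 (adjusted p = 0.0319). The second probe set of Sall1 gave -0.07 ± 0.14 (adjusted p over probe sets = 0.763), so the fall was seen with 1 of its 2 probe sets. The call was also lost without any 1 of the 3 caudal sham arrays (adjusted p between 0.0666 and 0.131) and without caudal 48 h array 273 (adjusted p = 0.0570), and Sall1 did not pass with the mean of its probe sets (adjusted p = 0.0539) or with repeated quantile normalisation (adjusted p = 0.0724). When only the 2 groups entered the limma fit, Sall1 did not pass either (adjusted p = 0.368).

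Among the receptors, the ADP receptor gene P2ry12 had signals of 7.89, 7.03, 7.70 and 6.87 on the caudal 48 h arrays, against 8.12, 8.60 and 7.28 on the sham arrays. The sham array 280 lay among the 48 h arrays, and the difference of -0.63 ± 0.43 did not pass (adjusted p = 0.290). Its interval ran from -1.53 to 0.27, which holds both a fall of more than 1 log2 unit and a small rise. Gpr34 had 5.18, 4.33, 5.32 and 6.51 at 48 h, against 6.36, 6.44 and 6.06 in sham cord. The first 3 of the 48 h arrays were below all sham arrays, and array 274 was above all of them. The difference was -0.95 ± 0.42 (adjusted p = 0.120), and it passed without array 274 (-1.34, adjusted p = 0.0128). The Gpr34 probe set lay below the lower quartile of all probe sets on 6 of 22 arrays, 5 of them 48 h arrays, and low signals are measured less precisely. The probe sets used for the other 8 genes did so on 0 arrays.

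Cx3cr1 had signals of 7.98, 9.13, 9.44 and 9.57 on the caudal 48 h arrays, against 9.25, 9.20 and 9.09 on the sham arrays. Array 271 was far below the rest and arrays 273 and 274 were above all sham arrays, so the mean difference of -0.15 ± 0.27 (adjusted p = 0.693) covers arrays that went opposite ways. A second Cx3cr1 probe set gave 0.14 ± 0.37. P2ry13 had 7.16, 6.84, 7.15 and 7.61 at 48 h, against 7.27, 7.28 and 7.20 in sham cord, a difference of -0.06 ± 0.16 (adjusted p = 0.786). The sham arrays of P2ry13 lay close together and inside the range of the 48 h arrays.

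Of the surface proteins, Tmem119 had signals of 9.49, 8.43, 8.78 and 8.67 on the caudal 48 h arrays, against 8.30, 8.50 and 8.60 on the sham arrays. Array 271 carried the highest value and array 272 lay among the sham arrays. The difference was 0.38 ± 0.19 (adjusted p = 0.175). Siglech had 8.03, 7.12, 7.67 and 7.48 at 48 h, against 7.54, 7.74 and 7.61 in sham cord. The sham arrays lay inside the range of the 48 h arrays, and the difference was -0.06 ± 0.19 (adjusted p = 0.836), with an interval of -0.46 to 0.34.

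**Figure D2:**
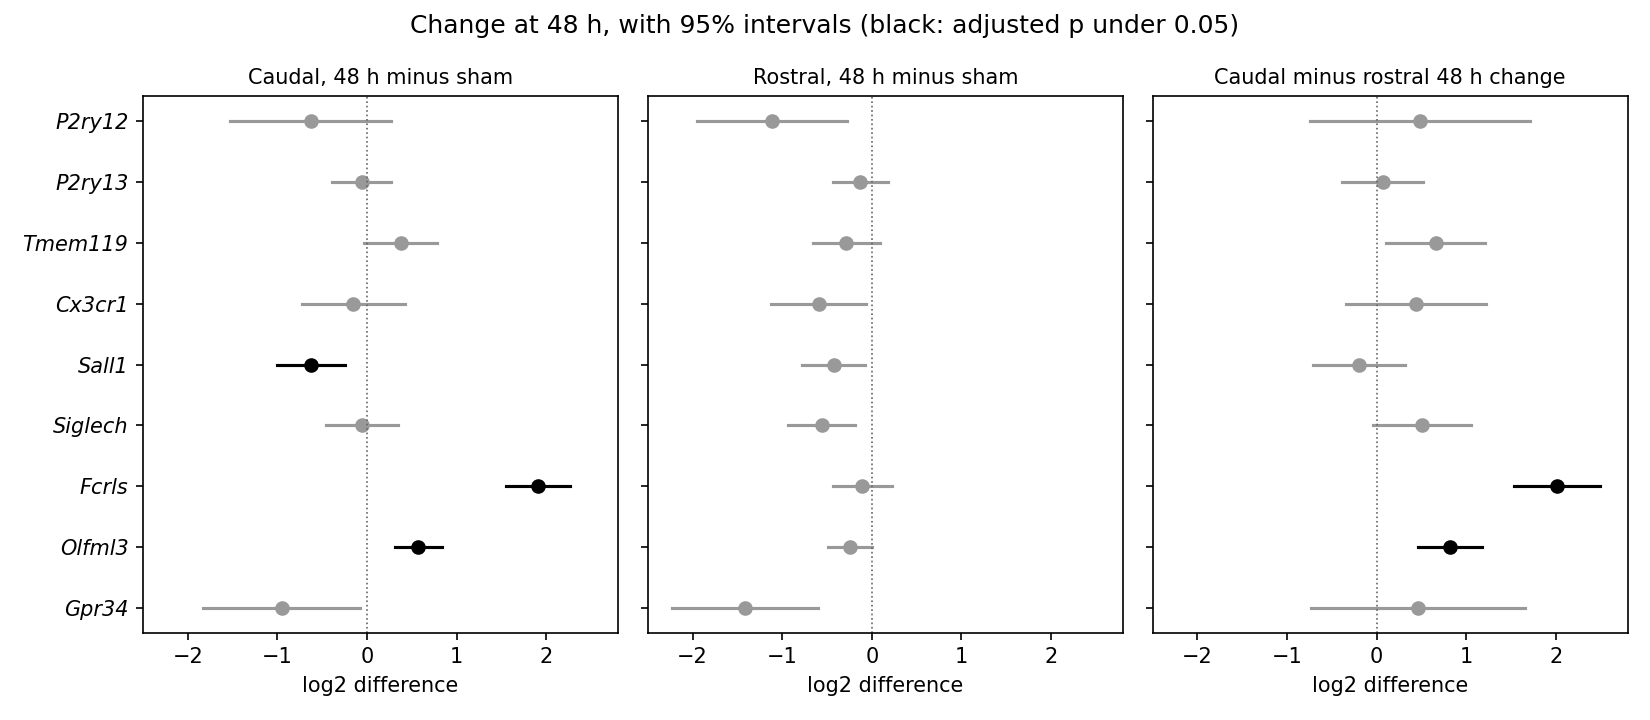
Log2 difference of each gene with its 95% interval, for caudal 48 h minus sham, rostral 48 h minus sham, and the caudal change minus the rostral change. Black marks an adjusted p under 0.05 over all genes. Fcrls and Olfml3 are above 0 in the caudal panel and in the panel of the difference, while all 9 points of the rostral panel are below 0.

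Fcrls stood apart from the other 8 genes on each caudal 48 h array, not only on average. The change of Fcrls from the sham mean of its region, minus the median change of the other 8, was 2.27, 2.06, 2.10 and 1.55 on caudal 48 h arrays 271, 272, 273 and 274, against -0.09, -0.05 and 0.16 on the caudal sham arrays. On all 4 caudal 48 h arrays, 0 of the other 8 genes had a larger change than Fcrls. The nearest was Tmem119 on array 271 (1.03) and Olfml3 on arrays 272, 273 and 274 (0.17, 0.85 and 0.60). The widest distance was to Gpr34, with a mean of 2.86 ± 0.90 (SD, n = 4), and the smallest was to Olfml3, with 1.33 ± 0.16. These distances are descriptions, since the genes were chosen with results of these arrays known.

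On the caudal 48 h arrays, Fcrls moved instead at the size of genes that all macrophages and microglia share. On the log2 scale, over 12 pan-myeloid genes, the median change on the caudal 48 h arrays was 2.04, 1.68, 1.61 and 1.35. Fcrls differed from that median by 0.13, -0.06, 0.46 and 0.42, whereas the median of the other 8 homeostatic genes differed from it by -2.14, -2.12, -1.65 and -1.13. On rostral 48 h arrays 271, 272, 273 and 274, Fcrls differed from the pan-myeloid median of the array by -0.55, -0.45, -0.27 and -0.02. Of the 12 pan-myeloid genes, 11 rose and 0 fell at 48 h below T6, where 5.52% of all genes were higher and 7.02% lower. The exception, Laptm5, had 0.51 ± 0.24 (adjusted p = 0.132). The complement genes C1qa and C1qc rose by 1.37 and 1.59 on the log2 scale, and the leukocyte phosphatase gene Ptprc rose by 1.52.

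**Figure D3:**
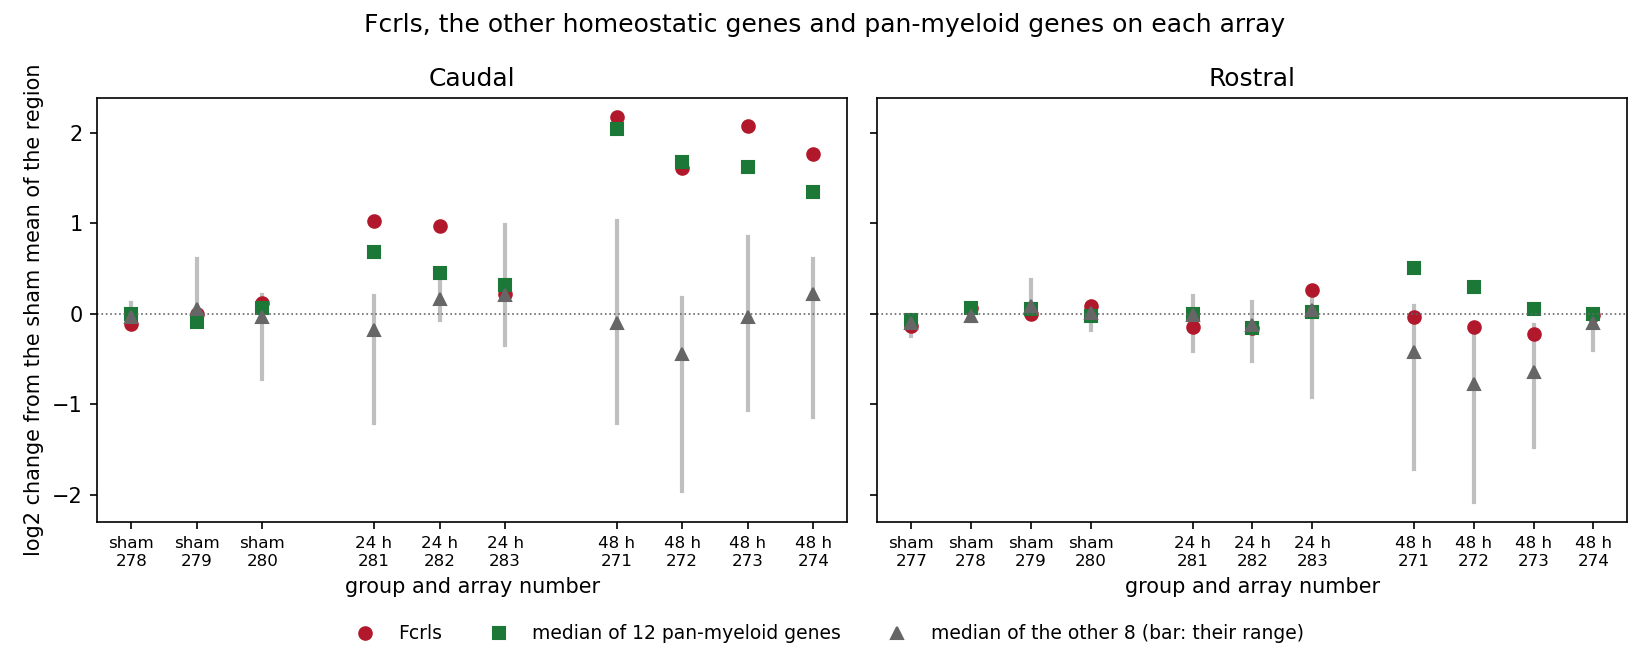
Log2 change from the sham mean of the same region on each array, for Fcrls (circles), for the median of 12 pan-myeloid genes (squares) and for the median of the other 8 homeostatic genes (triangles, with a bar for their range). On the 4 caudal 48 h arrays Fcrls lies above the whole range of the other 8 and close to the pan-myeloid median, and on the rostral arrays it lies between -0.22 and 0.26.

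The 5 genes whose change over the 14 clamped arrays of the 4 clamped groups was most like that of Fcrls were Mpeg1 (mean absolute difference 0.236 on the log2 scale), Cst7 (0.276), C1qc (0.279), Tnf (0.291) and Gem (0.295). Mpeg1 encodes a pore-forming protein of macrophages, Cst7 a cystatin raised in activated microglia, C1qc a chain of complement C1q, Tnf the cytokine tumour necrosis factor and Gem a small GTPase. Their caudal 48 h changes were 1.81, 2.16, 1.59, 1.66 and 1.55 in that order. Of the homeostatic genes, the one most like Fcrls was Olfml3, which came at rank 423 of 18192 genes (0.575).

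The genes of the Fc receptor family and its adaptor showed how the relatives of Fcrls moved. Of 7 measured, 5 rose and 0 fell at 48 h below T6, where 5.52% of all genes were higher and 7.02% lower. Fcgr1 rose by 2.79, Fcgr4 by 2.77, Fcgr3 by 1.93 and the adaptor chain gene Fcer1g by 1.69, and the fifth, Fcgr2b, named after its value was seen, rose by 1.09. Fcgr3 and Fcer1g are also in the pan-myeloid list. The B cell genes Fcrl1 (0.21, adjusted p = 0.177) and Fcrla (0.23, adjusted p = 0.186), also named after their values were seen, did not pass.

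Other microglia-enriched genes were mixed, as the 9 were. Of 21 measured, 5 rose and 1 fell at 48 h below T6, with a median change of 0.17. Of all genes, 5.52% were higher and 7.02% lower there, so the single fall is no result about the list. P2ry6, the UDP receptor gene of phagocytic microglia, rose by 1.34, Trem2, a lipid-sensing receptor gene, by 1.07, Ctss, the protease cathepsin S, by 0.90 and Abi3 by 0.58. Cd33, which rose by 0.81, and Bin1, which fell by 0.54, were named after their values were seen. Csf1r, the receptor gene on which microglial survival depends, differed by -0.09 ± 0.23 (adjusted p = 0.794).

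Of 18 genes for signals and regulators that act on microglia, 6 rose and 0 fell at 48 h below T6. Of all genes, 5.52% were higher and 7.02% lower there. Spi1, which encodes PU.1, rose by 1.47, Irf8 by 1.28, the growth factor gene Csf1 by 0.99 and Smad3, a transducer of transforming growth factor beta, by 0.52. Tgfb1 had a difference of 0.60 ± 0.22 (adjusted p = 0.0715), Il34, the other ligand of CSF1R, 0.17 ± 0.15, and Cx3cl1, the ligand of CX3CR1, -0.63 ± 0.26 (adjusted p = 0.107). In the same group the Sall1 probe set used here fell, while the second Sall1 probe set gave -0.07 ± 0.14. A link between Sall1 and the rises of Spi1 and Irf8 was not tested.

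P2ry12 and P2ry13 lie on chromosome 3 inside the span of Med12l, together with P2ry14 and Gpr171. Of 4 neighbours measured, 0 rose and 1 fell at 48 h below T6, namely Med12l, by 0.61 (adjusted p = 0.0420 in limma), in a comparison in which 7.02% of all genes fell, so this single call is no result about the locus. P2ry14, Gpr171 and P2ry1 had differences of -0.14, 0.05 and -0.59, the last with an adjusted p of 0.0512. At 48 h above T6, Med12l had a difference of 0.01 and P2ry12 one of -1.11.

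Genes of activated microglia and of other myeloid cells were also called in the same samples, where 5.52% of all genes were higher and 7.02% lower. Of 9 genes raised in disease-associated microglia, 5 rose and 1 fell: Clec7a rose by 3.24, Lpl by 2.23, Cst7 by 2.16 and Gpnmb by 1.20, and Itgax (0.71) and Apoe (-0.38) were named after their values were seen. Lpl is also a gene of heart muscle, and of 12 cardiac genes 6 rose and 1 fell on these arrays (median change 1.85). The part of cardiac RNA in the Lpl value was not tested. Of 10 monocyte genes, 4 rose and 0 fell, namely Chil3 (2.62), Ms4a4c (2.13), Plac8 (1.86) and F10 (0.88), while the defining receptor gene Ccr2 had 0.61 ± 0.27 (adjusted p = 0.118). The mean log2 signal of the 10 monocyte genes lay between 8.05 and 9.78 on the caudal 48 h arrays and between 7.25 and 7.93 on the caudal sham arrays. Of 10 genes of border macrophages 2 rose, Lyve1 (2.01) and F13a1 (1.01), and Mrc1 had 0.41 ± 0.20 (adjusted p = 0.156). Of 9 neutrophil genes, Mmp8 alone was called (1.71), a single call that is no result about the list. The part of these cells in the changes of Fcrls and Olfml3 was not tested.

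At 48 h above T6, all 9 genes were below sham on average, but none passed the test over all genes. Fcrls was the least changed of them and did not share the caudal rise. With limma, 0 of 9 genes were called, against 0.61% of all genes, and 6 of 9 had an unadjusted p under 0.05, as did 1288 of the 18193 genes. The median change of the 9 was -0.43, and that of all genes was -0.02. With array weights, a fit that trusts noisy arrays less, 5 of the 9 were called (Gpr34, Cx3cr1, Siglech, P2ry12 and Sall1, all lower), but that fit also called 1850 of all genes in place of 111. Cardiac genes rose on the same arrays (11 of 12, median change 5.11), while the 10 neuronal and glial genes had a median change of -0.01; the part of the cardiac RNA in these values was not tested.

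Gpr34 had signals of 4.61, 4.24, 4.86 and 5.93 on the rostral 48 h arrays, against 6.22, 6.24, 6.69 and 6.14 on the rostral sham arrays. All 48 h arrays were below all sham arrays, array 274 by the least. The difference was -1.41 ± 0.39 (adjusted p = 0.143), and it passed without rostral 48 h array 274 (-1.75, adjusted p = 0.0193), without caudal 48 h array 274 (adjusted p = 0.0421), and when only the 2 groups entered the fit (adjusted p = 0.0442). The fit of only the 2 groups also called 453 of all genes in place of 111. P2ry12 had 7.10, 7.21, 8.06 and 8.43 at 48 h, against 8.58, 8.85, 8.999 and 8.84 in sham cord. Again all 48 h arrays were lower, and the difference was -1.11 ± 0.40 (adjusted p = 0.368). Over all genes, 7.46% had every rostral 48 h array below every sham array.

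Cx3cr1 had 8.99, 8.62, 8.33 and 9.40 on the rostral 48 h arrays, against 9.41, 9.40, 9.48 and 9.43 on the sham arrays, a difference of -0.59 ± 0.25 (adjusted p = 0.569). Siglech had 7.32, 7.28, 7.55 and 7.91, against 7.89, 8.15, 8.20 and 8.06, a difference of -0.56 ± 0.18 (adjusted p = 0.241). Sall1 had 8.28, 8.20, 7.84 and 8.71, against 8.65, 8.72, 8.65 and 8.71, a difference of -0.43 ± 0.17 (adjusted p = 0.457). In each of the 3 genes, arrays 271, 272 and 273 were below every sham array and array 274 reached the sham values. The same array stood apart over the set: the median change of the 8 genes other than Fcrls was -0.42, -0.78 and -0.64 on arrays 271, 272 and 273 and -0.10 on array 274.

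Fcrls had 8.34, 8.22, 8.15 and 8.35 on the rostral 48 h arrays, against 8.23, 8.43, 8.37 and 8.45 on the sham arrays. The groups overlapped, the difference was -0.11 ± 0.16 (adjusted p = 0.9999), and the interval of -0.43 to 0.22 holds no rise of the caudal size. Olfml3 had 9.47, 9.18, 9.20 and 9.39, against 9.43, 9.53, 9.59 and 9.68, a difference of -0.25 ± 0.12 (adjusted p = 0.689). Tmem119 differed by -0.28 ± 0.18 and P2ry13 by -0.13 ± 0.15, with overlapping arrays in both. Of the 12 pan-myeloid genes 0 were called above T6 at 48 h, where 0.61% of all genes were called. Of the 9 disease-associated genes Lpl alone was (2.79, adjusted p = 2.41e-08), a single call that is no result about the list. Lpl is also a gene of heart muscle, and 11 of 12 cardiac genes rose on these arrays (median change 5.11). The part of cardiac RNA in this Lpl value was not tested.

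**Figure D4:**
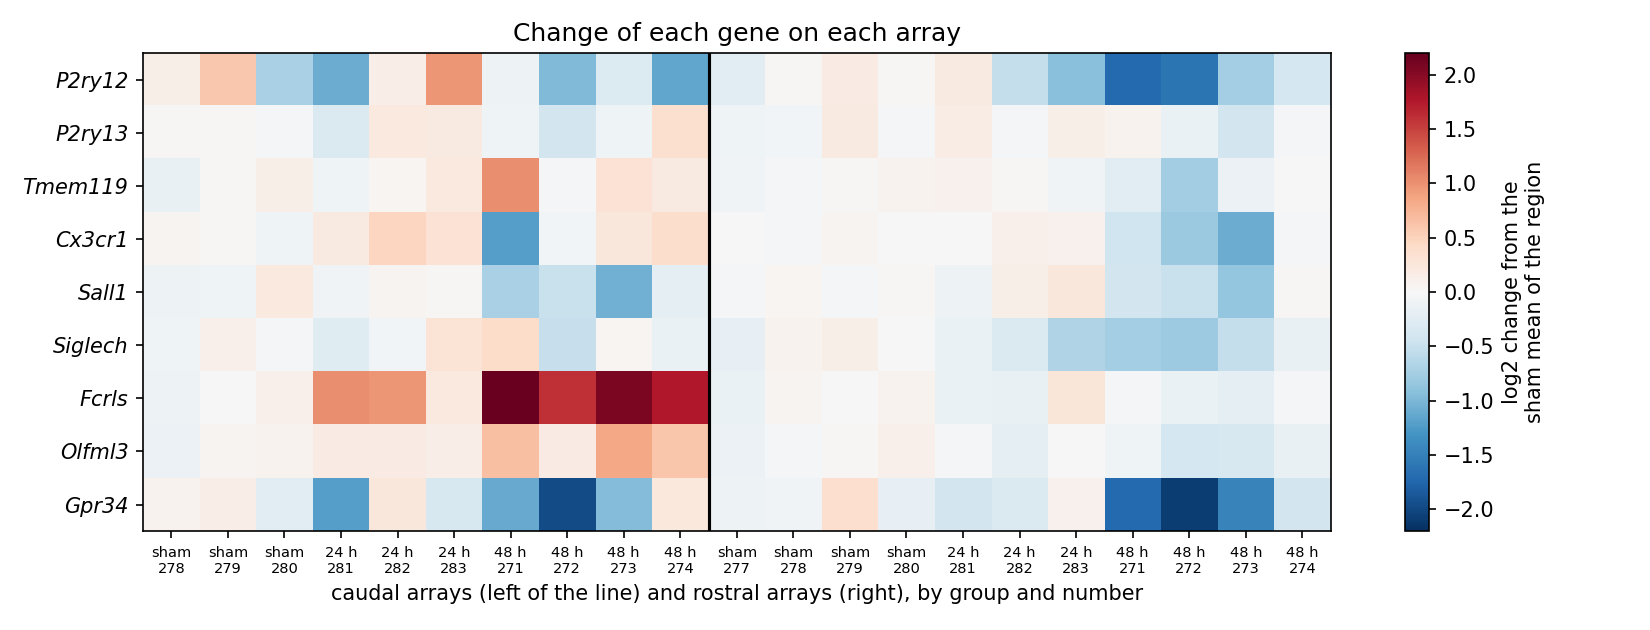
Log2 change of each gene from the sham mean of its region (colour, red above and blue below) on every grouped array, ordered sham, 24 h and 48 h within caudal cord (left of the line) and rostral cord (right of it). The Fcrls row is red on all 4 caudal 48 h arrays and on caudal 24 h arrays 281 and 282, and Gpr34 is the bluest row on rostral 48 h arrays 272 and 273.

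The change at 48 h below T6 was then set against that above T6 in 1 model. Fcrls and Olfml3 responded differently in the 2 regions, and 2 of 9 genes were called, both more raised below T6, against 0.561% of all genes (0.407% in that direction). The caudal change of Fcrls exceeded the rostral one by 2.01 ± 0.23 (95% interval 1.53 to 2.50, adjusted p = 0.000238). For Olfml3 the excess was 0.82 ± 0.17 (adjusted p = 0.0317), and it did not pass without any 1 of caudal sham arrays 278, 279 and 280, rostral sham arrays 278, 279 and 280 or rostral 48 h arrays 272 and 273 (adjusted p between 0.0629 and 0.129), or without both arrays numbered 283 (adjusted p = 0.0579).

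For the other 7 genes no regional difference passed. Tmem119 had an excess of 0.66 ± 0.26 (adjusted p = 0.370), Siglech 0.50 ± 0.26, P2ry12 0.48 ± 0.59, Gpr34 0.46 ± 0.57, Cx3cr1 0.44 ± 0.37 and P2ry13 0.07 ± 0.22. Sall1 had -0.20 ± 0.25, with an interval of -0.71 to 0.32, so its fall below T6 was not shown to differ from its value above T6. The intervals of P2ry12 (-0.75 to 1.71) and Gpr34 (-0.73 to 1.66) are too wide to call the regions alike.

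At 24 h below T6, Fcrls was higher on average, and the differences of the other 8 genes lay between -0.44 (Gpr34) and 0.33 (Cx3cr1). With limma, 0 of 9 genes were called, against 0.0055% of all genes, which is 1 gene, and of the 9 Fcrls alone had an unadjusted p under 0.05, as 528 of the 18193 genes did. Fcrls had signals of 9.05, 8.99 and 8.24 on caudal 24 h arrays 281, 282 and 283, against 7.90, 8.02 and 8.14 in sham cord. Arrays 281 and 282 were nearly a log2 unit above sham, and array 283, whose Hox genes go against its label, was close to the highest sham array. The difference was 0.74 ± 0.18 (adjusted p = 0.9998). Without both arrays numbered 283 it was 0.996 ± 0.144, which passed (adjusted p = 0.0249). The excess of Fcrls over the median of the other 8 was 1.20, 0.80 and 0.02 on arrays 281, 282 and 283.

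The receptors were uneven at 24 h. P2ry12 had 6.91, 8.14 and 8.98 on the caudal 24 h arrays, against 8.12, 8.60 and 7.28 on the sham arrays, and Gpr34 had 5.08, 6.53 and 5.94, against 6.36, 6.44 and 6.06. In both, array 281 was the lowest and the groups overlapped. Cx3cr1 had 9.37, 9.66 and 9.51, against 9.25, 9.20 and 9.09, and Olfml3 had 9.59, 9.61 and 9.56, against 9.28, 9.48 and 9.49. In these 2 genes all 24 h arrays were above all sham arrays, as in 8.65% of all genes, and the differences were 0.33 ± 0.29 and 0.17 ± 0.13. The differences of Tmem119, P2ry13, Sall1 and Siglech lay between -0.01 and 0.06 with the probe sets used here. Second probe sets gave 0.51 ± 0.15 for Sall1 and 0.88 ± 0.39 for Cx3cr1 (limma adjusted p over probe sets = 0.996 for each). Without both arrays numbered 283, the differences were -0.48 for P2ry12, -0.48 for Gpr34, 0.33 for Cx3cr1, 0.18 for Olfml3, -0.17 for Siglech, -0.05 for P2ry13, -0.02 for Tmem119 and -0.01 for Sall1, and none of these passed.

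At 24 h above T6, with limma, 0 of 9 genes were called, against 0% of all genes, and 0 of 9 had an unadjusted p under 0.05, as 142 of all genes did. Fcrls had 8.23, 8.21 and 8.63 on the rostral 24 h arrays, against 8.23, 8.43, 8.37 and 8.45 on the sham arrays, the highest being the array labelled rostral 283. The differences of the 9 genes lay between -0.42 (P2ry12) and 0.09 (P2ry13). Without both arrays numbered 283, Fcrls had a rostral difference of -0.15 in place of -0.01, P2ry12 one of -0.16, Gpr34 -0.36, Siglech -0.24, Olfml3 -0.12, P2ry13 0.07, Tmem119 0.06, Cx3cr1 0.06 and Sall1 0.01, and none passed.

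Between 24 h and 48 h below T6, Fcrls was higher and Sall1 lower at 48 h. Of 9 genes 2 were called, 1 higher and 1 lower, against 6.69% of all genes (4.24% higher and 2.45% lower). This comparison shares its 48 h arrays with the comparison to sham. Fcrls was higher at 48 h than at 24 h by 1.17 ± 0.17 (adjusted p = 0.000715), and by 0.91 without both arrays numbered 283. All 48 h arrays were above all 24 h arrays, as in 5.91% of all genes. The Fcrls difference did not pass when only these 2 groups entered the fit (adjusted p = 0.226), a fit that called 0 of all genes. Sall1 was lower by 0.62 (log2 difference -0.62 ± 0.18, adjusted p = 0.0450), and its second probe set gave -0.58 ± 0.14 (adjusted p over probe sets = 0.0258). The 2 probe sets did not take the same course from caudal sham. The second gave 0.51 ± 0.15 at 24 h and -0.07 ± 0.14 at 48 h. The one used here gave -0.0009 ± 0.19 at 24 h and -0.62 ± 0.18 at 48 h. The Sall1 call was kept in only 3 of 21 fits that each left out 1 array (adjusted p at most 0.174), and it was lost without both arrays numbered 283 (-0.61, adjusted p = 0.204). Olfml3 was higher by 0.40 ± 0.13 (adjusted p = 0.0611), and by 0.39 without both arrays numbered 283 (adjusted p = 0.247). Above T6, with limma, 0 of 9 genes were called between 48 h and 24 h, against 0.363% of all genes, and 956 of the 18193 genes and 3 of the 9 had an unadjusted p under 0.05, the 3 being Gpr34 (-1.21), Cx3cr1 (-0.67) and Sall1 (-0.52). Without both arrays numbered 283 these were -1.05, -0.65 and -0.43.

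Between sham cord below T6 and sham cord above T6 no difference of the 9 genes passed. With limma, 0 of 9 were called, against 0.335% of all genes, and of the 9 Siglech alone had an unadjusted p under 0.05, as 1003 of the 18193 genes did. Siglech had 7.54, 7.74 and 7.61 in caudal sham cord, against 7.89, 8.15, 8.20 and 8.06 in rostral sham cord, a difference of -0.44 ± 0.19 (adjusted p = 0.826). Fcrls (-0.35 ± 0.17) and Cx3cr1 (-0.25 ± 0.27) also had every caudal array below every rostral array, as did 8.67% of all genes. With the probe sets used here, P2ry12 had the widest difference, -0.81 ± 0.43, with caudal array 279 (8.60) just above rostral array 277 (8.58). The second Cx3cr1 probe set gave a wider one, -1.03 ± 0.37 (limma adjusted p over probe sets = 0.536). For Sall1, the second probe set gave -0.40 ± 0.14 (limma adjusted p over probe sets = 0.536) and the one used here 0.13 ± 0.18. When only these 2 groups entered the fit, Siglech (adjusted p = 0.0134) and Fcrls (adjusted p = 0.0313) passed, both lower below T6. That fit also called 835 of all genes in place of 61. On array 276, the rostral array in no group, Fcrls had 8.26, P2ry12 8.24, Gpr34 6.38 and Olfml3 9.50, and its cardiac genes were 5.37 above rostral sham in median.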

How the data were processed

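The data are log2 signals of 45101 probe sets on 22 arrays, which the authors made with RMA and deposited, per the submitters' processing notes. No version of RMA is given in the sources used here, and the values were used as deposited. RMA scales all arrays to 1 distribution, so a change is relative to the other transcripts of the array. Of the probe sets, 34958 carry 1 gene symbol and 932 several in the platform annotation. Those with 1 symbol gave 18193 genes, each taken as its probe set with the highest mean over all 22 arrays. Arrays give no read depth, and their number limits the precision.

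The 21 grouped arrays entered a single limma model (version 3.58.1, with statmod 1.5.0, in R 4.3.3) that estimates 6 group means, using lmFit, contrasts.fit and eBayes, and 18.7 degrees of freedom remained with the prior. Differences are the first-named group minus the second. Tests were two-sided, errors are standard errors, n counts arrays, and p-values were adjusted by Benjamini-Hochberg over all genes of a comparison and called under 0.05. The fit was tested on simulated data. Comparisons with the same sham group share its arrays.

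The 9 genes, 13 other gene lists and the rule for names were chosen with earlier results of these data known. The rule named the 9 genes, up to 4 called genes of each list with the smallest p at 48 h, a few ligands, receptors and neighbours (Csf1r, Cx3cl1, Csf1, Il34, Tgfb1, Ccr2, Mrc1 and Med12l), and the 5 genes most like Fcrls. Alternatives were the mean of probe sets, every probe set, brighter genes, repeated quantile normalisation, centring, eBayes with trend and robust, array weights, only the groups compared, the title number as a block, and arrays left out. The labels do not say that same-numbered arrays share an animal, and the numbers were not taken as pairs. RefSeq promoter windows are of the GRCm38.p6 build. The deposited files hold no coordinates, and those printed are of that table.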

Additional observations from a re-analysis of the deposited data

Results flagged for a closer look

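Fcrls had the clearest regional difference among the 9 genes. Its 48 h change below T6 exceeded that above T6 by 2.01 (limma adjusted p = 0.000238), with 4 of 4 caudal 48 h arrays above every caudal sham array and rostral arrays that overlapped sham. Olfml3 also differed between regions, by 0.82 (limma adjusted p = 0.0317), with 4 of 4 caudal 48 h arrays above every caudal sham array. This regional Olfml3 call was lost without caudal sham array 278 (limma adjusted p = 0.129), and without several other single arrays. It was also lost when only the groups compared entered the fit (limma adjusted p = 0.110). Over all genes, 8.90% had every caudal 48 h array above every caudal sham array. Between 48 h and 24 h below T6, Fcrls differed by 1.17 and Sall1 by -0.62, each with all 4 arrays at 48 h on one side of all 3 arrays at 24 h. Over all genes, 5.91% had every 48 h array above every 24 h array, and 6.94% had every one below. The 24 h arrays include array 283, whose Hox genes go against its label. Without both arrays numbered 283 the Sall1 call was lost (limma adjusted p = 0.204).

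Of 27 groups of 4 arrays tested for a value far from the others, 1 was found, where chance gives about 1 in 20. It was P2ry13 on rostral sham array 279, at 7.51, while the other rostral sham arrays had 7.21, 7.25 and 7.26.

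Array 276, which belongs to no group, had Tmem119 at 8.84 and Sall1 at 8.90, both above the highest rostral sham array (8.72 for each gene).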

How the results depend on the processing

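Of 2298 values of the 9 genes recomputed under the alternatives, 2226 kept their side of the threshold and, where called, their sign, 45 lost a call, 27 gained one and 0 called values reversed. Most of these values were not called in the main fit and had no call to lose, so the 2226 do not measure how firm the calls were. At 48 h below T6, the Sall1 call was kept in 25 of 32 alternatives and the Olfml3 call in 30 of 32. The caudal 48 h rise of Fcrls was called in 32 of 32 alternatives (1.82 to 2.05), and its regional difference in 33 of 33 (1.92 to 2.16, adjusted p at most 0.00931). When only the groups compared entered the fit, which leaves fewer arrays to estimate the spread, the number of the 9 genes called was 1 in place of 3 at 48 h below T6, 1 in place of 0 at 48 h above T6, 0 in place of 2 between 48 h and 24 h below T6, 1 in place of 2 for the regional difference and 2 in place of 0 between sham regions. Over all genes, the same fits called, in that order, 142 in place of 2282, 453 in place of 111, 0 in place of 1218, 69 in place of 102 and 835 in place of 61. At 48 h below T6, the mean of probe sets and repeated quantile normalisation each called 2 in place of 3, with Sall1 lost (adjusted p = 0.0539 and 0.0724), and array weights and leaving out caudal arrays 271, 274 and 280 each called 4, with Gpr34 gained. Over all genes, these settings called 2563, 2223, 6245 and 4661 in that order, in place of 2282. Array weights called 5 at 48 h above T6, 1 at 24 h below T6, 3 between 48 h and 24 h above T6, 4 for the regional difference and 1 between sham regions. Over all genes, array weights called, in that order, 1850 in place of 111, 293 in place of 1, 1124 in place of 66, 1363 in place of 102 and 1256 in place of 61. Every probe set as a feature left 1 of 2 called between 48 h and 24 h below T6 and for the regional difference, repeated quantile normalisation and centring left 1 for that time comparison, and brighter genes left 1 for the regional difference. With every probe set, 1931 and 99 probe sets were called in these comparisons. Over all genes, repeated quantile normalisation called 1423 and centring 1184 in place of 1218, and brighter genes called 19 in place of 102. Without both arrays numbered 283, 1 was called at 24 h below T6, 1 between 48 h and 24 h below T6 and 1 for the regional difference. Over all genes, that setting called 2 in place of 1, 186 in place of 1218 and 90 in place of 102 in these comparisons. Without caudal arrays 271, 274 and 280, 2 were called at 48 h above T6, and 887 of all genes in place of 111. Beyond the fewer arrays and genes these settings hold, the cause was not tested.

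Leaving out 1 array at a time gave 1 (without caudal sham array 278) to 4 (without caudal 48 h array 274) called genes at 48 h below T6, 0 to 1 at 48 h above T6, 1 to 3 between 48 h and 24 h below T6, and 1 to 2 for the regional difference. Over all genes, the same gave 805 to 5736, 58 to 420, 261 to 3724 and 42 to 824 called, and all alternatives gave 142 to 6245, 39 to 1850, 0 to 4067 and 19 to 1363. The title number as a replicate block, random or fixed, changed no count of the 9 genes (3 called at 48 h below T6 with the random block) and moved the regional count over all genes to 195 or 177 from 102 and that between sham regions to 91 (random) or 0 (fixed, in limma, where unpaired array 277 adds nothing) from 61. The deviations of same-numbered arrays had correlations of 0.22 to 0.53 in 6 of the 10 pairs, all of 48 h or sham, 0.09 in the other sham pair and -0.45 to -0.03 in the 24 h pairs, so not every pair was over 0.1. The correlation within a number was 0.14. Restricting to brighter genes shifted the median change of all genes by up to 0.19, and no other setting shifted it by over 0.1.

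The limits are those of the arrays: groups of 3 or 4, Gpr34 near the dim end of the signals, 1 probe set for 7 of the 9 genes, and whole tissue without cell counts.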

Other observations

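Markers of cells other than microglia were also measured in these samples, where 5.52% of all genes were higher and 7.02% lower at 48 h below T6. There, Gfap, the filament gene of reactive astrocytes, rose by 0.77, and the neuronal genes Map2 and Nefl fell by 0.40 and 0.31 on the log2 scale (limma adjusted p = 0.00577, 0.0487 and 0.0488), out of 10 neuronal and glial genes, of which 1 rose and 2 fell. Of 7 fibroblast and mural cell genes, 0 rose and 1 fell, Col1a1, by 1.23, a single call that is no result about the list. Above T6 at 48 h, 0 of the 10 and 0 of the 7 were called with limma.

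On array 276 the other homeostatic genes had log2 signals of 7.51 (P2ry13), 9.34 (Cx3cr1) and 8.06 (Siglech). The change of Fcrls minus the median change of the other 8 was -0.13 on that array.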
